A study of Arabidopsis thaliana with 16 samples.

Results

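The genes studied here are those of the mitochondrial genome of Arabidopsis thaliana and the rows of chromosome 2 that hold a nuclear copy of mitochondrial DNA. They were chosen as all identifiers that start with ATMG and the nuclear identifiers AT2G07667 to AT2G07835, where a row had at least 10 counts in 2 or more of the 16 libraries. This left 41 of 146 ATMG rows and 47 of 141 chromosome 2 rows, 88 of 33602 rows in all. No count in any library was held by 63 ATMG rows and 45 chromosome 2 rows. Just inside the threshold, with exactly 2 libraries at 10 counts, lay 5 ATMG rows with 33 to 94 counts in all libraries together and 5 chromosome 2 rows with 74 to 90. Just outside it, with 1 such library, lay 20 ATMG rows with 20 to 106 counts and 20 chromosome 2 rows with 16 to 93.

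Plant mitochondria keep a small genome that encodes subunits of the respiratory chain and of ATP synthase, factors that attach heme to cytochrome c, ribosomal proteins, and ribosomal and transfer RNAs. Its transcripts are made by nuclear-encoded polymerases and are cut, spliced and edited by nuclear-encoded proteins, and a poly(A) tail marks a plant mitochondrial RNA for decay rather than for translation. In the accession Col-0 a long stretch of this genome also sits in chromosome 2 near the centromere, so the same sequence occurs both in the organelle and in the nucleus.

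The libraries came from whole seedlings grown for 5 days in liquid culture under constant light, and messenger RNA was isolated with the TruSeq v2 kit, which selects RNA with poly(A) tails. Untreated rpn10-1 and rpn12a-1 seedlings gave 2 libraries each, and Col-0 seedlings gave 4 untreated libraries at 0 h, 4 after 3 h and 4 after 24 h in fresh medium with 100 µM MG132, an inhibitor of the proteasome. RPN10 and RPN12A are subunits of the regulatory particle of the 26S proteasome. The labels give neither the accession in which the mutants arose nor a group kept in fresh medium without MG132, so the mutation and the accession cannot be told apart, nor can MG132, its solvent, the fresh medium and time. A technical replicate note in the titles of replicates 3 and 4 of each Col-0 group and of both rpn12a-1 libraries divides the libraries into 2 sets, with the note and without it. Libraries held 6646134 to 21762565 counts, and levels are given as CPM, counts relative to the scaled library size. RPN10 stood at 21.4 and 22.1 CPM in rpn10-1 and at 98.6 to 136 CPM in untreated Col-0, and RPN12A at 52.0 and 42.8 CPM in rpn12a-1 and at 73.6 to 102 CPM in untreated Col-0. The leaf gene RBCS1A was at 6314 to 20778 CPM. The 3 root markers LRX1, PRP3 and IRT1 were at 14.0, 15.9 and 20.4 CPM in rpn10-1 replicate 1 and at 41.8, 59.8 and 44.5 CPM in replicate 2, with 4.20 to 23.1, 11.3 to 46.4 and 9.26 to 14.97 CPM in untreated Col-0. At 24 h of MG132 they were at 0.43 to 4.89 CPM in the libraries without the note and at 5.05 to 17.0 CPM in those with it. Of 2 seed storage genes, CRA1 was at 30.2 CPM in rpn10-1 replicate 2 and at 3.53 CPM or less elsewhere, while SESA4 was at 0.28 CPM there and at 1.01 CPM or less elsewhere. The part of these markers in the results was not tested.

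The match between both genomes was measured on the TAIR10.1 reference, whose mitochondrial sequence is that of Col-0, whereas the submitters named TAIR10, whose mitochondrial sequence came from the accession C24. On chromosome 2, bases 3239038 to 3509765 matched the mitochondrial sequence in 17 stretches of 1000 bases or more, with 99.9% identity, and these covered 72.2% of the 367808 bases of the mitochondrial genome. Of the 47 chromosome 2 rows, 45 lie in this insertion. The other two, ABCC13 (AT2G07680, a transporter of the multidrug resistance family, chr2:3514668-3522658, plus strand) and MCM5 (AT2G07690, a subunit of the replicative helicase, chr2:3522984-3527500, minus strand), lie beside it and shared no stretch of 50 bases with the mitochondrial sequence, so they are ordinary nuclear genes. The 47 rows are 27 protein-coding genes, 13 of them uncharacterized, and 20 pseudogenes. In 22 of the 45 rows every stretch of 50 bases of exon was also present in the mitochondrial sequence. The lowest share in any row was 85.3%, and 73.8% for stretches of 100 bases. A read from most of these exons therefore has a perfect match in both places on this reference, and the sources used here do not say how reads with several matches were counted.

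The stretches below are shown because they carry the problem of telling the copies apart. The first pair begins the coding sequence of cytochrome b, a subunit of respiratory complex III, with the start codon in capitals, in AT2G07727 (chr2:3450863-3450982, plus strand) and in the mitochondrial sequence (bases 182739-182858, minus strand). All 120 bases are the same, as are all 3243 bases of the gene.
AT2G07727: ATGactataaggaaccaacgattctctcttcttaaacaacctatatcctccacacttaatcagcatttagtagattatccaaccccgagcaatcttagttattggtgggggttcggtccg
AT2G07727 match: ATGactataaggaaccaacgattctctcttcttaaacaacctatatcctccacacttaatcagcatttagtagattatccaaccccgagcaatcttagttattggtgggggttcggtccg
The second pair begins the coding sequence of subunit III of cytochrome c oxidase, respiratory complex IV, again with the start codon in capitals, in AT2G07687 (chr2:3312532-3312651, minus strand) and in the mitochondrial sequence (bases 330654-330773, minus strand). It is also the same over all 120 bases and over the 998 bases of the gene.
AT2G07687: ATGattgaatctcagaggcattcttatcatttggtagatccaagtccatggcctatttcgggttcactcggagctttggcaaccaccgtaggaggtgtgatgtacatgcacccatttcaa
AT2G07687 match: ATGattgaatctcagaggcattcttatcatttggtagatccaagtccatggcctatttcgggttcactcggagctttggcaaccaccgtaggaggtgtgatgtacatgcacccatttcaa
The third pair comes from AT2G07811, a pseudogene chosen after its values were seen, as one of the 2 rows that were below untreated Col-0 in both rpn10-1 libraries (chr2:3336933-3337052, minus strand; mitochondrial bases 94293-94412, plus strand). The capital marks the one differing base, T60C, with positions counted from 1 at the first base shown, and the 620 bases of the row held 2 differences in all.
AT2G07811: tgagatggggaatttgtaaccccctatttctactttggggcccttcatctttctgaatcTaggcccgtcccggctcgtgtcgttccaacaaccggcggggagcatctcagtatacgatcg
AT2G07811 match: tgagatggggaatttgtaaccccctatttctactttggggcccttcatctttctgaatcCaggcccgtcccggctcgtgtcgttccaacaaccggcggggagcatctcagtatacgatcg

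The copies were nearly identical on TAIR10.1, but the counts were made on TAIR10, where the match was not measured. In many pairs nearly all counts lay in one row, with counts not scaled to row length. The reference names an ATMG partner for 52 chromosome 2 rows, and 34 of these pairs held at least 20 counts over all libraries. The chromosome 2 row held over 90% of the counts in 15 of the 34 pairs, the ATMG row in 5, and neither in 14. Cytochrome b had 1605 counts at AT2G07727 and 0 at ATMG00220. Subunit a of ATP synthase, part of the proton channel, went the other way, with 0 counts at AT2G07741 and 542 at ATMG00410. Reads of the ribosomal protein L5 gene lay at AT2G07725 with 564 counts, against 0 at ATMG00210. Both rows were above the threshold in 6 pairs. The alpha subunit of ATP synthase had 1913 counts at AT2G07698 and 110 at ATMG01190, the ring subunit c 165 at AT2G07671 and 883 at ATMG01080, and subunit III of cytochrome c oxidase 555 at AT2G07687 and 1015 at ATMG00730. An OB-fold nucleic acid-binding protein had 1234 counts at AT2G07715 and 231 at ATMG00560. The uncharacterized pairs AT2G07798 with ATMG01220 and AT2G07835 with ATMG00400 had 170 and 72 counts, and 262 and 243 counts. Counts per 1000 bases of exon had a median of 259 in the 22 rows with every stretch shared, with a range of 61.8 to 5444, and of 257 in the other 23 rows, with a range of 32.8 to 6239. The difference was not tested. The densest rows were the pseudogenes AT2G07709, with 6239 counts per 1000 bases, and AT2G07717, with 5444. The 88 values below are those of rows, and which genome a read came from was not tested.

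**Figure D1:**
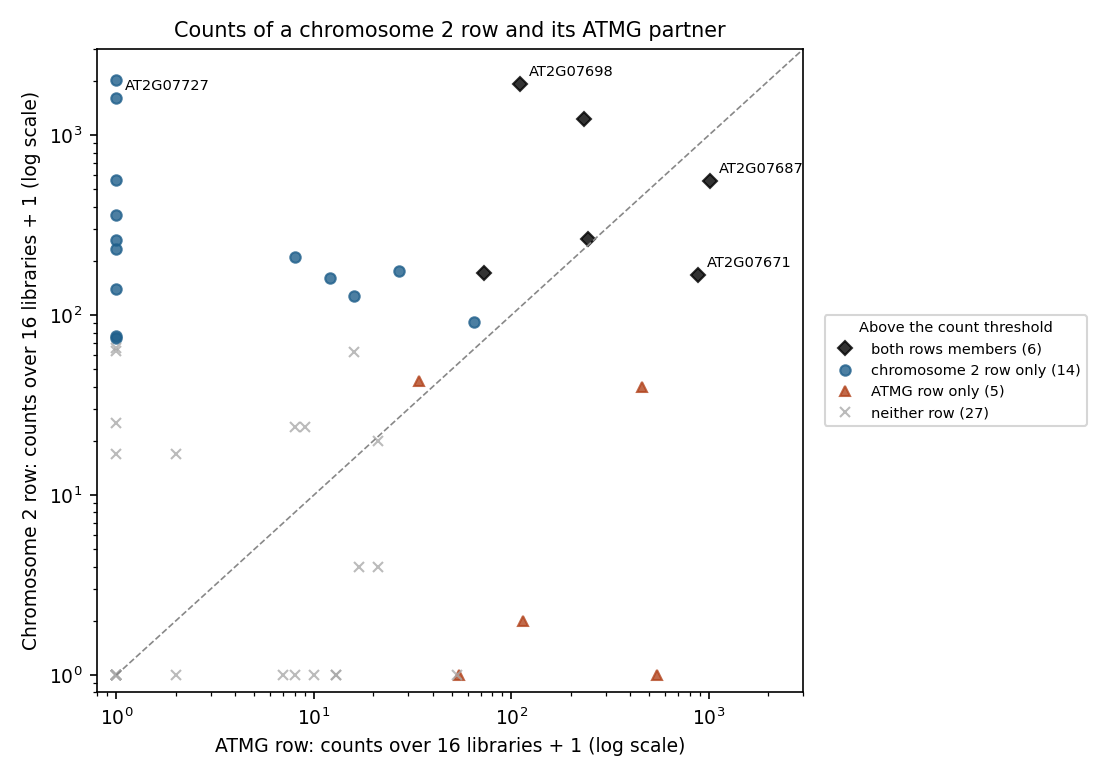
Counts over all 16 libraries in 52 pairs, with the ATMG row on the x axis and its chromosome 2 partner on the y axis, both as counts + 1 on log scales; symbols show which rows are among the 88 and the dashed line marks equal counts. Most pairs lie far from the line, such as AT2G07727 with 1605 counts at chromosome 2 and 0 at its ATMG partner.

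Each set varied widely between libraries of 1 group. The 41 ATMG rows summed to 500 and 18782 CPM in the rpn10-1 libraries and to 4098 and 2185 CPM in the rpn12a-1 libraries. In Col-0 they summed to 1506, 769, 2324 and 5115 CPM untreated, to 341, 1170, 11003 and 7604 CPM after 3 h of MG132 and to 1787, 3977, 1961 and 1533 CPM after 24 h, in the order of replicates 1 to 4. The 2 libraries of rpn10-1 thus lay below and above all 4 untreated Col-0 libraries, and the 3 h libraries also lay on both sides of the untreated ones. The 47 chromosome 2 rows summed to 244 and 583 CPM in rpn10-1 and to 149 and 105 CPM in rpn12a-1. They summed to 153, 98.5, 163 and 322 CPM in untreated Col-0, to 68.1, 95.1, 547 and 378 CPM at 3 h and to 222, 296, 168 and 130 CPM at 24 h. The same 4 libraries were highest in both sums, rpn10-1 replicate 2, replicates 3 and 4 of 3 h MG132 and untreated Col-0 replicate 4, and 3 h replicate 1 was lowest in both. The chromosome 2 sums include ABCC13 and MCM5. Without these the remaining 45 rows summed to 211 and 546 CPM in rpn10-1 and to 31.5 CPM in 3 h replicate 1. The median biological coefficient of variation in the fit was 0.72 for ATMG rows and 0.68 for chromosome 2 rows, against 0.17 for all 21205 genes tested. Fewer mitochondria or cells of a type and less RNA per cell cannot be told apart in RNA of whole seedlings.

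Other RNA that a poly(A) selection is meant to leave out also varied widely between libraries, though not always with the ATMG rows. In rpn10-1 replicate 1 the plastid sum was within its untreated Col-0 range. The ATMG sum of 500 CPM and the nuclear ribosomal RNA sum of 614 CPM were below theirs. The plastid (ATCG) rows summed to 12132 and 30616 CPM in rpn10-1, to 7119 and 4389 CPM in rpn12a-1 and to 3132, 2406, 6941 and 20801 CPM in untreated Col-0. The 4 nuclear rows annotated as ribosomal RNA summed to 614 and 25442 CPM in rpn10-1, to 4890 and 2870 CPM in rpn12a-1 and to 1001, 687, 1861 and 4649 CPM in untreated Col-0. Both sums were lowest of all in 3 h replicate 1, at 709 and 248 CPM, and highest in rpn10-1 replicate 2. At 3 h they were 1552, 15423 and 16956 CPM and 753, 6266 and 6714 CPM in the remaining replicates. Their part in the results on the ATMG and chromosome 2 rows was not tested.

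**Figure D2:**
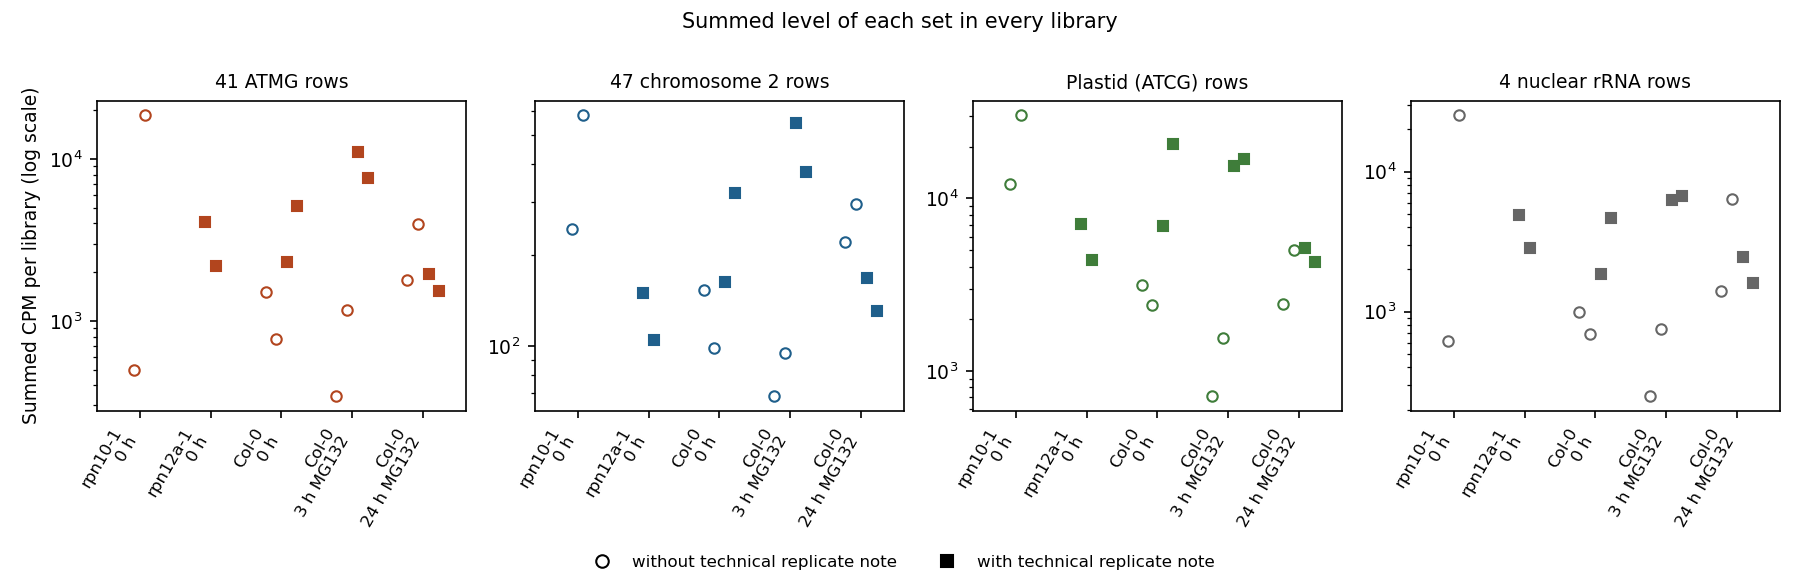
Summed CPM (log scale) of the 41 ATMG rows, the 47 chromosome 2 rows, the plastid rows and 4 nuclear ribosomal RNA rows in each of the 16 libraries, 1 symbol per library, by group. At 3 h of MG132 the 2 libraries with the technical replicate note lie at 7604 and 11003 CPM of ATMG rows and the 2 without it at 341 and 1170 CPM, and the rpn10-1 libraries lie at 500 and 18782 CPM.

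A few rows made up the ATMG sum. ATMG00020 held 58.9% of all ATMG counts, ATMG01390 29.2% and ATMG00030 7.84%, and the annotation used here gives none of them a product. The gene lists chosen for these tests place ATMG00020 and ATMG01390 among ribosomal RNAs, so the ATMG sum mostly follows rows listed as ribosomal RNA. ATMG00020 was at 239 and 10791 CPM in rpn10-1, at 2423 and 1253 CPM in rpn12a-1 and at 921, 479, 1394 and 3002 CPM in untreated Col-0. These 3 rows held 94.0% to 97.0% of the ATMG counts in 15 libraries and 82.1% in rpn10-1 replicate 1. Mean levels over the 16 libraries ran from 0.161 to 2402 CPM in ATMG rows, with a median of 1.60 CPM and 11 rows under 1 CPM, and from 0.371 to 44.8 CPM in chromosome 2 rows, with a median of 1.27 CPM and 19 rows under 1 CPM. AT2G07717 was at 29.9 and 118 CPM in rpn10-1 and at 27.2, 14.4, 26.5 and 67.6 CPM in untreated Col-0, and AT2G07709 at 35.3 and 101 CPM in rpn10-1 and at 32.5, 18.1, 22.9 and 55.4 CPM in untreated Col-0. In both pseudogenes rpn10-1 replicate 1 lay within the untreated range and replicate 2 above it. MCM5 was between 12.9 and 34.5 CPM in all 16 libraries, at 28.4 and 34.5 CPM in rpn10-1 and at 21.8, 15.5, 31.6 and 30.6 CPM in untreated Col-0. Chromosome 2 rows held 3.01% to 16.6% of the counts of both sets in 15 libraries and 32.8% in rpn10-1 replicate 1.

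With both library sets together, no member passed the test for MG132. At 3 h against untreated Col-0, 0 of 41 ATMG rows and 0 of 47 chromosome 2 rows were called by edgeR's quasi-likelihood test (Benjamini-Hochberg adjusted p under 0.05), where 17.9% of all genes tested were called, and 1 ATMG row and 0 chromosome 2 rows had an unadjusted p under 0.05. At 24 h the counts were again 0 and 0, with 26.4% of all genes called and 1 and 0 rows at an unadjusted p under 0.05. Between 24 h and 3 h they were 0 and 0, with 16% of all genes called and 0 and 0 rows at an unadjusted p under 0.05. DESeq2 also called 0 rows of either set in these 3 comparisons. Without a filter on low counts, edgeR called 6 ATMG and 3 chromosome 2 rows at 3 h, 10 and 2 at 24 h, and 1 and 2 between 24 h and 3 h, with 14.8%, 21.4% and 15.9% of all genes called. The median log2 fold change of ATMG rows was 0.46 at 3 h and 0.53 at 24 h, and that of chromosome 2 rows 0.57 and 0.39, against -0.01 and -0.03 for all genes. The smallest adjusted p of a member was 0.15 at 3 h and 0.13 at 24 h.

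Fitted changes of most members had opposite signs in the 2 library sets. Fitted within the libraries with the note, 16 of 41 ATMG and 18 of 47 chromosome 2 rows were called between 24 h and 3 h, with 9.35% of all genes called, and within those without it 5 and 18 were called, with 26.7% of all genes called. In the libraries with the note, the median ATMG row was higher after 3 h of MG132 than untreated (log2 0.88) and lower at 24 h than at 3 h (log2 -1.74). In the libraries without it, the median was lower at 3 h than untreated (log2 -1.04) and higher at 24 h than at 3 h (log2 2.62). Chromosome 2 rows did alike, with medians of 1.07 and -1.92 in the libraries with the note and of -1.19 and 2.56 in those without. ATMG00020 shows it in single libraries: with the note it was at 1060 and 865 CPM at 24 h and at 7018 and 4619 CPM at 3 h, and without it at 1194 and 2248 CPM at 24 h and at 199.5 and 722 CPM at 3 h. The 3 h libraries with the note were the highest of Col-0 in this row, and one of those without it was the lowest.

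The difference between library sets was tested itself, in a fit to the 12 Col-0 libraries with an effect for each set, a test added after the data had been seen. It covered 32 ATMG rows and 34 chromosome 2 rows, since 22 of the 88 members did not pass the filter on low counts there. For 24 h against 3 h, 30 of 32 ATMG rows and 29 of 34 chromosome 2 rows differed between the sets (edgeR's quasi-likelihood test, adjusted p under 0.05), against 17.7% of the 20138 genes tested. All 32 ATMG rows and 32 of the 34 chromosome 2 rows were lower at 24 h in the set with the note and higher in the set without it. The 2 exceptions were MCM5 and ABCC13, which lie outside the insertion, with differences of -0.60 and -0.30 on the log2 scale that were not called (adjusted p 0.15 and 0.57 in the edgeR fit). ATMG00020 changed by -2.58 on the log2 scale with the note and by 1.95 without it, a difference of -4.53 (SE 0.79, adjusted p 0.0054, edgeR). For AT2G07687, the copy of the oxidase subunit, the changes were -2.83 and 3.78, with a difference of -6.61 (SE 0.93, adjusted p 0.0037, edgeR), and for its partner ATMG00730 they were -1.86 and 2.48, with a difference of -4.34 (SE 0.94, adjusted p 0.011, edgeR). For 24 h against untreated Col-0, 7 ATMG rows and 9 chromosome 2 rows differed, against 7.07% of all genes. For 3 h against untreated Col-0 it was 0 and 0, against 0.214%, with 12 and 19 rows at an unadjusted p under 0.05, where 14.3% of all genes were. The plastid rows moved between the same libraries, at 5136 and 4307 CPM at 24 h and 15423 and 16956 CPM at 3 h with the note, and at 2453 and 5033 CPM at 24 h and 709 and 1552 CPM at 3 h without it. Their part in the difference was not tested.

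**Figure D3:**
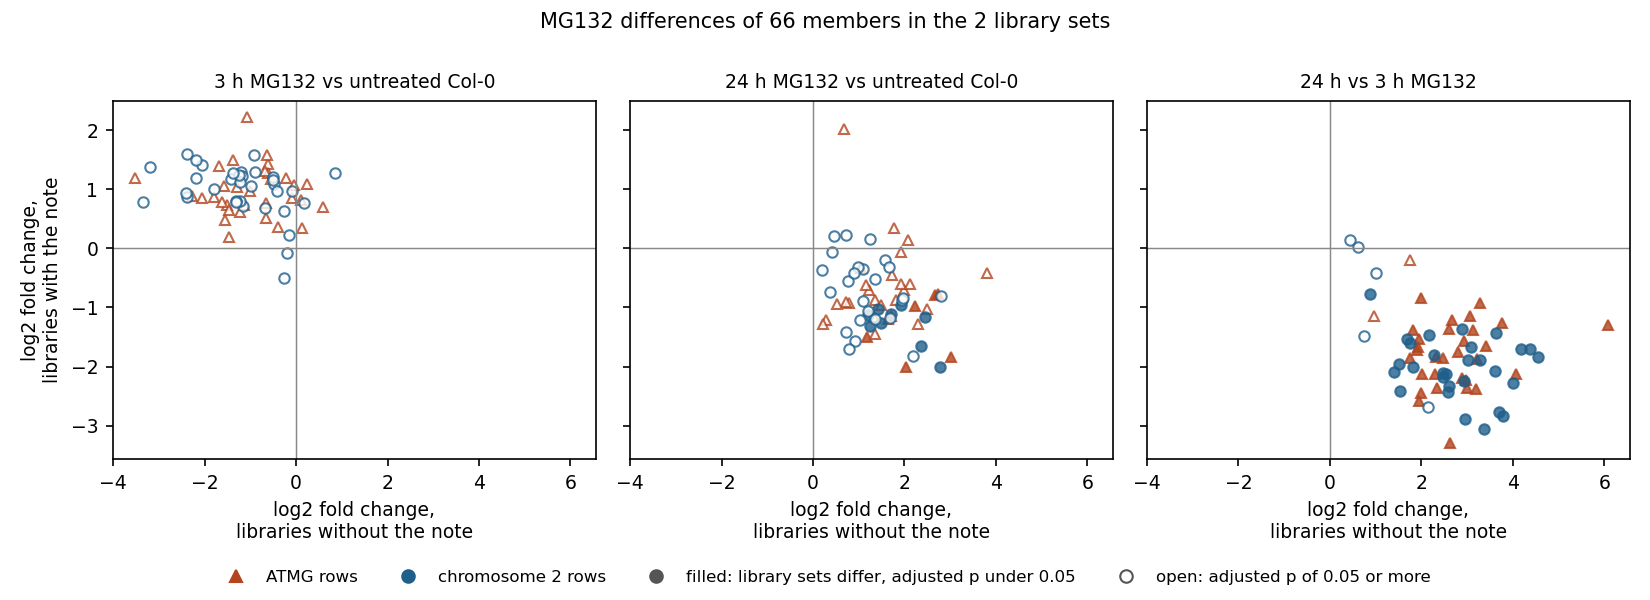
Log2 fold changes of 32 ATMG rows and 34 chromosome 2 rows in the libraries without the technical replicate note (x axis) and with it (y axis) for 3 h MG132 over untreated Col-0, 24 h MG132 over untreated Col-0 and 24 h over 3 h of MG132; filled symbols mark rows whose change differed between the sets at an adjusted p under 0.05. In the last panel all 32 ATMG rows and 32 of the 34 chromosome 2 rows lie at the lower right, below 0 with the note and above 0 without it.

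In rpn10-1 many members were higher than in untreated Col-0. Of 41 ATMG rows, 19 rose and 0 fell, and of 47 chromosome 2 rows, 24 rose and 1 fell (edgeR's quasi-likelihood test, adjusted p under 0.05), where 23% of all genes were called, 11.4% higher and 11.5% lower. The 24 include MCM5 (log2 0.68, adjusted p 0.024, edgeR), and the 1 that fell was ABCC13, both of which lie outside the insertion. Without the term for the library set 6 ATMG and 14 chromosome 2 rows were called, with 12.9% of all genes called, and with a replicate block 14 and 13 were, with 19.5% of all genes called. The median log2 fold change, adjusted for the library set, was 2.79 for ATMG rows and 2.55 for chromosome 2 rows, against 0.01 for all genes. This adjustment takes the same library set effect in every group, whereas most members tested for it differed between the sets for 24 h against 3 h of MG132. Both rpn10-1 libraries lay above all 4 untreated Col-0 libraries in 12 ATMG rows and 23 chromosome 2 rows, where 19.4% of all genes did so, and below them in 0 and 2 rows, where 18.8% did so. ATMG00130, ATMG00910, ATMG01220, AT2G07779 and AT2G07806 reached 10 counts only in rpn10-1. They were chosen through the values compared here, yet are counted among the calls and the rows above, so these counts are partly set by the choice of members. The libraries of rpn10-1 are both without the note, and within that set 19 ATMG rows and 25 chromosome 2 rows were called, 13 and 20 of them among the calls above, with 25.5% of all genes called.

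The 2 rpn10-1 libraries differed from each other in which rows were high. ATMG rows were higher in replicate 2 in 36 of 41 cases, with a median ratio of replicate 1 to replicate 2 of 0.131, whereas chromosome 2 rows were higher in replicate 1 in 18 of 47 cases, with a median ratio of 0.655. Replicate 1 exceeded all untreated Col-0 libraries in 13 ATMG rows and 23 chromosome 2 rows, and replicate 2 in 40 and 44. By kind of chromosome 2 row, both libraries exceeded all untreated ones in 11 of 13 uncharacterized proteins, 8 of 20 pseudogenes and 4 of 14 named products, a difference between kinds that was not tested. Leaving out 1 rpn10-1 library leaves a lone one in that group, so only fold changes are given for these fits. Of the 19 ATMG and 25 chromosome 2 rows called, 1 and 2 changed sign without replicate 2. None did without replicate 1, where ATMG00910 was not tested. The log2 fold change was 5.64 without replicate 1 and 2.36 without replicate 2 in ATMG00730, and 2.22 and 4.52 in AT2G07795. It was 2.39 and 2.20 in ATMG00670, 3.59 and 3.37 in AT2G07779, 4.57 and 3.56 in AT2G07696 and -3.20 and -2.38 in ABCC13. These are examples of rows that moved less. Other called rows moved more, such as ATMG00090 with 3.40 and 0.06 and ATMG00510 with 4.12 and -0.70. The calls also depended on the untreated libraries without the note. Leaving out untreated Col-0 replicate 1 gave 6 ATMG and 8 chromosome 2 calls, with 15.2% of all genes called. Leaving out untreated Col-0 replicate 2 gave 6 and 5, with 14.5% of all genes called. ATMG00670 and AT2G07779, both without a known product here and named after their values were seen, were at 2.94 and 3.35 CPM and at 1.44 and 1.68 CPM in rpn10-1, against 0.53, 0.61, 0.65 and 0.97 CPM and 0.07, 0.10, 0.07 and 0.21 CPM in untreated Col-0. Their libraries did not overlap between the groups, and the log2 fold changes were 2.29 (SE 0.57, adjusted p 0.010) and 3.49 (SE 0.75, adjusted p 0.0046, edgeR). AT2G07779 reached 10 counts only in rpn10-1, so it was chosen through the same values and its difference is no separate support.

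**Figure D4:**
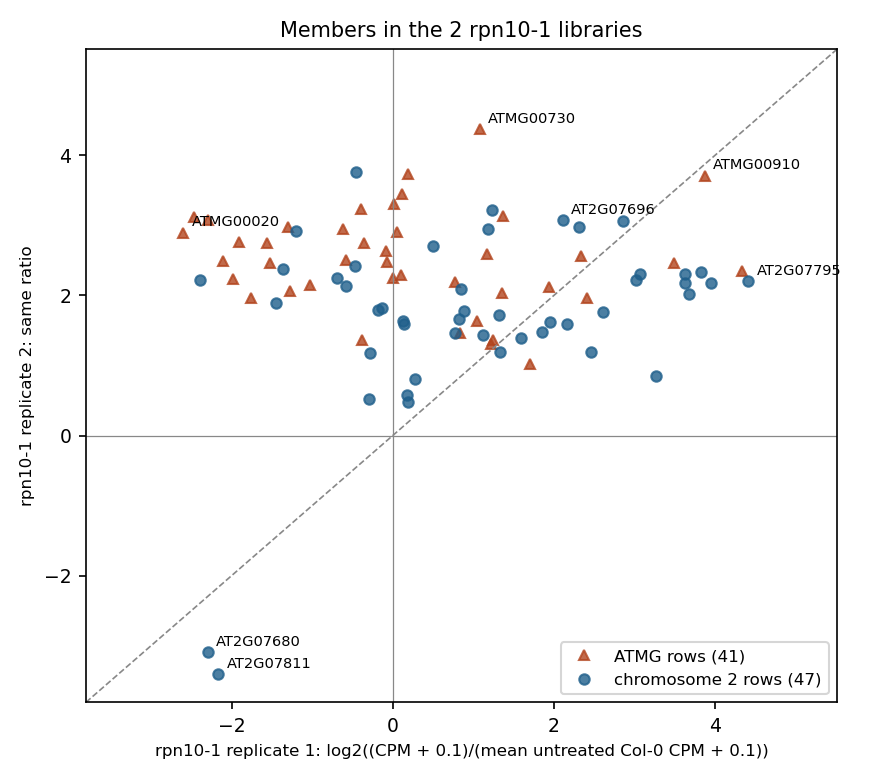
Ratio of each rpn10-1 library to the mean of the 4 untreated Col-0 libraries for 41 ATMG and 47 chromosome 2 rows, as log2((CPM + 0.1)/(CPM + 0.1)), with replicate 1 on the x axis and replicate 2 on the y axis. Most rows lie above the dashed line of equal ratios and 2 chromosome 2 rows, AT2G07680 and AT2G07811, lie below 0 in both libraries.

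Among rows for subunits of respiratory complexes, replicate 2 was above replicate 1 in each one given here. For complex IV, ATMG00730 was at 4.17 and 41.9 CPM in rpn10-1 and at 0.53, 0.31, 1.73 and 5.12 CPM in untreated Col-0. The groups overlapped, because replicate 1 lay within the untreated range (log2 fold change 4.79, SE 1.01, adjusted p 0.0042, edgeR). Its partner AT2G07687 was at 1.03 and 20.8 CPM in rpn10-1 and at 0.46, 0.20, 1.81 and 3.32 CPM in untreated Col-0 (log2 4.17, SE 1.19, adjusted p 0.022, edgeR). Cytochrome b of complex III, at AT2G07727, was at 2.46 and 34.2 CPM in rpn10-1, against 3.23, 1.64, 6.50 and 14.6 CPM in untreated Col-0, and was not called (log2 2.78, SE 1.03, adjusted p 0.064, edgeR). Subunit NADH dehydrogenase 2B of complex I, at ATMG01320, was at 1.85 and 11.4 CPM, against 0.92, 0.72, 2.02 and 4.15 CPM, and was not called (adjusted p 0.051, edgeR). AT2G07785, of the NADH dehydrogenase family and named after its values were seen, was at 3.42 and 5.49 CPM in rpn10-1, both above the 0.46, 0.31, 0.29 and 1.38 CPM of untreated Col-0 (log2 2.82, SE 0.87, adjusted p 0.031, edgeR). For ATP synthase, the c subunit row ATMG01080 was at 1.57 and 19.7 CPM in rpn10-1, against 0.86, 0.61, 2.17 and 6.22 CPM in untreated Col-0 (log2 3.60, SE 0.97, adjusted p 0.017, edgeR). The alpha subunit copy AT2G07698 was at 1.57 and 40.7 CPM, against 2.70, 1.64, 8.82 and 21.4 CPM, and the c subunit copy AT2G07671 at 0.14 and 4.00 CPM, against 0.20, 0.10, 0.51 and 0.97 CPM. Both were called in rpn10-1 with log2 fold changes of 3.01 and 3.20, although replicate 1 lay below every untreated library in the first and within their range in the second, and without replicate 2 their log2 fold changes were -0.71 and -0.57.

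Rows for cytochrome c maturation and the ribosome differed among themselves. ATMG00960, a cytochrome c assembly protein, was at 3.15 and 1.49 CPM in rpn10-1 and at 0.13, 0.00, 0.07 and 0.55 CPM in untreated Col-0, with no overlap (log2 3.84, SE 0.87, adjusted p 0.0065, edgeR). ABCI4 (AT2G07681), another assembly protein, was at 2.26 and 0.74 CPM, against 0.20, 0.00, 0.00 and 0.07 CPM (log2 3.82, SE 1.21, adjusted p 0.035, edgeR). The ribosomal protein S7 copy AT2G07696 was at 1.57 and 3.16 CPM in rpn10-1, against 0.07, 0.10, 0.36 and 0.62 CPM (log2 4.14, SE 0.77, adjusted p 0.0019, edgeR), and its ATMG partner held no count in any library. The ccmF-like row AT2G07815, at 0.89 and 1.21 CPM in rpn10-1 and 0.73, 0.20, 0.43 and 1.73 CPM in untreated Col-0, was not called. Neither were the L5 row AT2G07725, at 0.82 and 9.21 CPM, against 1.19, 0.92, 1.301 and 6.22 CPM, and the S4 family row AT2G07734, at 0.96 and 6.79 CPM, against 0.59, 0.41, 1.52 and 3.39 CPM. Among rows without a known product, ATMG00040 was at 3.63 and 0.84 CPM in rpn10-1, against 0.13, 0.00, 0.00 and 0.21 CPM in untreated Col-0. AT2G07795 was at 5.54 and 1.12 CPM, against 0.07, 0.10, 0.14 and 0.35 CPM, and AT2G07667 at 4.72 and 1.303 CPM, against 0.07, 0.00, 0.36 and 0.41 CPM. The pseudogene AT2G07682 was at 16.5 and 6.51 CPM, against 0.99, 0.41, 0.72 and 2.83 CPM. These 4 were above every untreated library in both rpn10-1 libraries, higher in replicate 1, and were called, with log2 fold changes of 3.77 to 4.18.

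ATMG00910, of unknown function, was detected in rpn10-1 alone, with 20 and 13 counts (1.37 and 1.21 CPM) there and 0 counts in the other 14 libraries. Against a floor of 3 counts over the 4 untreated libraries (0.0564 CPM) it was at least 22.9-fold higher (adjusted p 0.015 in the edgeR fit). It passed the count threshold only through rpn10-1, so this difference was part of its selection and is no separate support. DESeq2 did not call it (adjusted p 0.21), nor did edgeR without untreated Col-0 replicate 1 (adjusted p 0.059). Its chromosome 2 partner AT2G07773, a cytochrome b-like row below the count threshold, held 1 and 2 counts in rpn10-1 and 0 to 7 in the other libraries. At the other end, ABCC13 fell to 4.45 and 2.51 CPM in rpn10-1, against 24.5, 17.1, 22.6 and 24.5 CPM in untreated Col-0 (log2 -2.70, SE 0.31, adjusted p 2.5e-05, edgeR), and it was between 11.5 and 23.5 CPM in the remaining 10 libraries. AT2G07811 had 2 and 0 counts in rpn10-1 and 4 to 33 counts in the other 14 libraries. It lay below all untreated libraries but was not called (log2 -2.98, SE 1.22, adjusted p 0.091, edgeR), and it overlaps AT2G07808 on the opposite strand, from which the kit cannot tell its reads apart.

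The 6 pairs with both rows above the threshold show how far the copies went together. In rpn10-1, both rows were called higher in 2 pairs, the c subunit of ATP synthase and subunit III of the oxidase. In the alpha subunit pair AT2G07698 was called and ATMG01190 was not, at 0.00 and 2.33 CPM in rpn10-1 and 0.07, 0.00, 0.29 and 0.97 CPM in untreated Col-0. In the pair of AT2G07798 and ATMG01220 the reverse held, with 2.60 and 2.05 CPM and 1.03 and 1.21 CPM in rpn10-1, against 0.33, 0.10, 0.43 and 1.52 CPM and 0.00, 0.00, 0.14 and 0.35 CPM in untreated Col-0. ATMG01220 reached 10 counts only in rpn10-1. Neither row of the remaining pairs was called. AT2G07715 stood at 6.91 and 10.1 CPM in rpn10-1 and at 5.81, 7.37, 3.47 and 6.08 CPM in untreated Col-0, with a log2 fold change of 0.53, while ATMG00560 had one of 2.54. AT2G07835 and ATMG00400 had log2 fold changes of 2.28 and 2.60. The differences within pairs were not tested.

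In rpn12a-1, 0 ATMG rows and 0 chromosome 2 rows were called (edgeR's quasi-likelihood test, adjusted p under 0.05), where 4.9% of all genes were called, 0 and 0 rows had an unadjusted p under 0.05, where 16.8% of all genes did, and DESeq2 also called 0. Without a filter on low counts 6 and 9 rows were called, with 6.61% of all genes called. The median log2 fold change was -0.31 for ATMG rows and -0.85 for chromosome 2 rows, and 29 of 41 and 39 of 47 rows had a fitted change below 0. Both rpn12a-1 libraries lay below all 4 untreated Col-0 libraries in 1 ATMG row and 4 chromosome 2 rows, where 16.4% of all genes did so. Both rpn12a-1 libraries carry the note. Their chromosome 2 sums of 149 and 105 CPM lay below the 163 and 322 CPM of the untreated Col-0 libraries with the note. Without ABCC13 and MCM5 the sums were 106 and 64.8 CPM, against 109 and 267 CPM in those untreated libraries. Of the rpn12a-1 ATMG sums, 4098 CPM lay between the 2324 and 5115 CPM of the same untreated libraries, and 2185 CPM lay below both.

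Nuclear genes that act in mitochondria had smaller fold changes in rpn10-1 than most members. Of 17 nuclear genes for mitochondrial RNA synthesis and processing, a list chosen with results of these data known, 6 were called higher in rpn10-1 and 0 lower, where 11.4% of all genes were higher and 11.5% lower, with log2 fold changes between -0.25 and 0.85. They included MGP3, a mitochondrial RNA polymerase, at log2 0.79 (SE 0.18, adjusted p 0.0072, edgeR), ATSUV3, an RNA helicase, at 0.54 (SE 0.15, adjusted p 0.020, edgeR), and MTSF1 (AT1G06710), a transcript stability factor, at 0.85 (SE 0.22, adjusted p 0.012, edgeR). Of 18 nuclear genes for respiratory chain subunits, 0 were called higher and 6 lower in rpn10-1, beside the same shares of all genes. One was CYTC-2, which encodes cytochrome c, at 27.1 ± 4.57 CPM (SD, n = 2) in rpn10-1 and 36.2 ± 8.82 CPM (SD, n = 4) in untreated Col-0 (log2 -0.71, SE 0.18, adjusted p 0.012, edgeR). At 3 h of MG132, 6 of the 17 RNA genes and 2 of the 18 subunit genes were called higher and 0 lower, where 8.68% of all genes were higher. PMH2, an RNA helicase of mitochondria, was at 67.7 ± 17.2 CPM at 3 h and 45.3 ± 1.71 CPM untreated (SD, n = 4 each), a log2 fold change of 0.56 (SE 0.13, adjusted p 0.0072, edgeR). At 24 h 1 gene of each list was called higher, where 12.6% of all genes were, between 24 h and 3 h 1 of each was called lower, where 7.76% were, and in rpn12a-1 0 of either list.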

How the data were processed

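Whole-seedling RNA was sequenced in 16 libraries, and the authors deposited a count of reads per gene for each. Per the submitters' processing notes the tools were Trimmomatic, TopHat, Bowtie2, HTSeq and edgeR on TAIR10, with no role, version or strand setting stated. The members, gene lists and tests were chosen with earlier results of these data known. All 33602 rows entered the fit. Genes were kept by filterByExpr (21205 tested, all 88 members among them), scaled by TMM and tested with edgeR 4.0.16 in R 4.3.3 by the quasi-likelihood test with terms for group and library set, Benjamini-Hochberg adjusted over all genes tested at a threshold of 0.05. Fold changes are therefore adjusted for the library set and differ from ratios of group means. The procedure was tested on simulated data. Named were, per comparison, up to 8 called members in each direction without overlap between libraries, the 6 highest of each set and the copy pairs; others were named after their values were seen. Copies were matched with blastn 2.17.0 on RefSeq's TAIR10.1, from which all sequences come. No label states that replicates are independent cultures. The p-values therefore reflect variation among these libraries, which may be technical. Same-numbered libraries of 3 h MG132 and untreated Col-0 deviated together (correlations 0.31 to 0.56), but not once the library set was taken out (-0.05 and 0.04). Alternatives were DESeq2 1.42.0, other scalings and filters, no library set term, a replicate block, each library set alone and leaving out each library.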

Additional observations from a re-analysis of the deposited data

Results flagged for a closer look

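In 5 of 99 groups of 4 libraries tested, 1 library stood apart from the other 3 by Dixon's test at the 95% level, and chance gives about 5% of groups. All 5 were at 24 h of MG132. Replicate 2 was high in ATMG00040, at 1.27 CPM with 0 to 0.127 CPM in the others, in ABCI4 (AT2G07681), at 1.09 CPM with 0.0702 to 0.214 CPM in the others, in AT2G07708, at 9.77 CPM with 5.04 to 5.71 CPM in the others, and in AT2G07687, at 2.62 CPM with 0.632 to 0.965 CPM in the others. Replicate 1 was low in ATMG00090, at 13.4 CPM with 31.1 to 33.2 CPM in the others.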

How the results depend on the processing

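The counts of called members in rpn10-1 (19 ATMG and 25 chromosome 2 rows) were the same, and the same rows, under RLE scaling, a filter of 10 counts and library sizes from nuclear genes. Of all genes, 23.2%, 22.9% and 23% were called there. DESeq2 called 27 and 27, with 18 and 24 of those rows among them and 25.6% of all genes called. Without the library set term 6 and 14 were called, with 12.9% of all genes called. With a replicate block 14 and 13 were called, with 19.5% of all genes called, and the block changed no other count. Same-numbered libraries correlated best with their own number in 4 of 8, 4 of 8 and 5 of 8 cases in the 3 Col-0 pairings. Without a filter on low counts 39 and 41 were called in rpn10-1, 6 and 3 at 3 h, 10 and 2 at 24 h, 1 and 2 between 24 h and 3 h, and 6 and 9 in rpn12a-1. The shares of all genes called there were 19.8%, 14.8%, 21.4%, 15.9% and 6.61%. Within the libraries without the note 1 and 4 were called at 24 h and 5 and 18 between 24 h and 3 h, with 26% and 26.7% of all genes called. Within those with it 5 and 5 were called at 3 h, 3 and 3 at 24 h, 16 and 18 between 24 h and 3 h, and 1 ATMG row in rpn12a-1. The shares of all genes in that set were 20.5%, 17.6%, 9.35% and 6.75%. Leaving out 1 Col-0 library at a time gave 6 to 33 ATMG and 5 to 31 chromosome 2 calls in rpn10-1, with 14.5% to 26.3% of all genes called. Leaving out any 1 library gave 0 to 1 ATMG calls at 24 h, with 18.2% to 29.9% of all genes called. Where a mutant library was left out, the lone one was assumed to vary like the other groups. The log2 fold changes in rpn10-1 ranged from -0.71 to 3.97 for AT2G07698 and from -0.57 to 4.21 for AT2G07671. The log2 ratio of summed levels in rpn10-1 ranged from -2.28 to 2.95 for ATMG rows and from 0.40 to 1.66 for chromosome 2 rows. Within the libraries without the note, log2 ratios of summed levels were -0.63 for chromosome 2 rows at 3 h, 1.34 for ATMG and 1.04 for chromosome 2 rows at 24 h, and 1.93 and 1.67 between 24 h and 3 h. Within those with it they were -1.09 and -0.70 at 24 h, and -1.63 for chromosome 2 rows between 24 h and 3 h. Chromosome 2 rows held 57.4% of counts in rpn10-1, 43.9% in rpn12a-1, 58.3% in untreated Col-0, 61.3% at 3 h and 58.4% at 24 h when the 3 most abundant ATMG rows and the rows without a mitochondrial match were left out, an alternative chosen after seeing the data, against 17.9%, 4.04%, 8.27%, 8.40% and 8.42% with them. The cause of these changes was not tested. Leaving out rows for ribosomal or transfer RNA was not run as such, because the annotation used here marks no member so. The gene lists chosen for these tests do place ATMG00020, ATMG01380 and ATMG01390 among ribosomal RNAs. Of these, ATMG00020 and ATMG01390 were left out only in the alternative without the 3 most abundant ATMG rows. Members with few counts limit precision: 11 of 41 ATMG and 19 of 47 chromosome 2 rows averaged under 1 CPM.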
